A study of Mus musculus with 12 samples.

Results

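The cytosolic ribosomal protein genes of the mouse were followed through liver and brain of Mettl5 knockout and control animals. They were chosen by symbol: a protein-coding gene named Rps or Rpl with a number and at most a short suffix (a, x, l), or Rplp0, Rplp1, Rplp2 or Rpsa, with the Rps6k kinases, pseudogenes and Y-linked genes left out. The rule found 82 of the 55487 genes in the count table, 31 named for the small subunit (Rps) and 51 for the large subunit (Rpl). Another 5 genes for parts of the ribosome carry names outside the rule (among them Rps3a1, Fau and Rack1) and were read beside them. Of the 82 members, 78 passed the filter on low counts in each comparison.

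Total RNA from liver and brain of 6 mice was sequenced in 12 libraries, 3 per group, and counted per gene. The KO group (mice A, C and F) lacked METTL5, the enzyme that places an N6-methyladenosine on 18S rRNA near the decoding centre. The allele came from a conditional line with a floxed exon 2, made in C57bl/6 x 129S6 hybrid ES cells and backcrossed to B6, in which exon 2 was then deleted body-wide by a cross to a CMV-driven deleter strain, B6.C-Tg(CMV-cre)1Cgn/J. The control group (mice B, D and E) carries the label WT. The study describes the controls of this RNA sequencing as heterozygous (Mettl5+/-) in some places and as wild type in others, so WT here names only the label. The labels give no treatment, age, sex, litter or batch. The study used both sexes, from some weeks to some months of age, and speaks of pairs of mice, a littermate pair among them, but the labels do not tell which KO and WT mice were paired, so the genotypes were compared unpaired. Each mouse gave a liver and a brain, so the tissues of an animal share its letter. Whole tissue was sequenced, in which fewer cells of a type and less RNA per cell cannot be told apart.

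Library totals ran from 14403309 to 21623180 counts. Mettl5 itself, counted over all its exons and not exon 2 alone, had a normalised read count of 12.9 ± 4.96 CPM (counts per 1000000 counts of the library, scaled by TMM, a factor that evens out library composition; SD, n = 3) in WT liver and 4.87 ± 0.250 in KO liver, and of 5.37 ± 1.65 and 2.92 ± 0.277 in brain (exact two-sided permutation test, p = 0.1 for liver and for brain, which is the lowest p that groups of 3 can give). By edgeR the log2 fold change of Mettl5 was -1.44 (SE 0.27, adjusted p = 0.38) in liver and -0.84 (SE 0.27, adjusted p = 0.37) in brain. At an adjusted p under 0.1, the deleted gene itself was thus not called in either tissue. All 6 liver markers and all 7 brain markers had over 10 counts in every library of their tissue. In brain the KO and WT libraries also differed in other markers: the 7 olfactory bulb genes summed to 31.2 to 47.1 CPM in KO against 4.76 to 10.4 in WT (5 of 7 called higher by edgeR), all 8 cerebellum genes had lower means in KO (169 to 508 against 811 to 1247 CPM summed), and so had all 6 choroid plexus genes (85.2 to 142 against 175 to 314). Lower fold changes in KO brain were also found for 6 of the 7 brain markers (2959 to 3336 against 3378 to 3729 CPM summed) and for all 5 liver markers tested there (87.9 to 138 against 171 to 313). The liver and choroid plexus lists share the gene Ttr, and their sums were close in each brain library. Their differences in brain are therefore not separate from each other. Outside the olfactory bulb list no gene of these lists was called in brain, and none of their genes was at 0 throughout a brain group. In liver the 6 B cell genes summed to 24.5 to 48.8 CPM in KO and 41.7 to 330 in WT (all 4 that were tested had lower means), and all 6 macrophage genes had lower means in KO (179 to 343 against 229 to 331 CPM summed, ranges that overlap), with 0 called. The 2 mitochondrial rRNA genes took 21.4 to 31.6% of the counts in KO brain and 7.63 to 17.7% in WT brain, and 7.36 to 8.66% in KO liver against 10.7 to 16.9% in WT liver. The part of the cell and region markers in the genotype comparisons of the ribosomal protein genes was not tested. With the 2 mitochondrial rRNA genes left out before scaling, the members' median log2 fold change between genotypes was 0.08 in liver and 0.20 in brain, against 0.09 and 0.20 with them.

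Ribosomal proteins are the protein part of the ribosome, assembled in the nucleolus onto rRNA in near equal numbers and exported as the small and the large subunit. The small subunit reads the mRNA, and the large subunit joins amino acids and lets the growing chain out through a tunnel. Their mRNAs are among the most abundant of a growing cell. They start with a run of pyrimidines, the terminal oligopyrimidine (TOP) tract, through which mTOR signalling and the protein LARP1 set how much of each is translated and how long it lasts. Liver, which makes the plasma proteins, and brain differ in how much protein they secrete, and several members have paralogs that replace them in some tissues.

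The starts of 7 members on which the results below turn are shown first, since TOP control acts at the first bases of an mRNA. Each run holds 40 bases before and 20 from the most upstream RefSeq start on (GRCm38.p6), 5′ to 3′ on the coding strand, and capitals mark CTTTC on the coding strand or CCGGAAG (an ETS-type motif) or TATAAA on either strand. Rps6 and Rpl4 are shown for KO brain, Rps28 for KO liver, Rps27l, Rpl10 and Rps2 for the difference between tissues, and Rpl22l1 as a paralog.
Rps6: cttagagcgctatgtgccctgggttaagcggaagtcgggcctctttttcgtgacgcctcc
Rpl4: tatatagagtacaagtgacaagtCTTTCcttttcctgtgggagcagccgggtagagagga
Rps28: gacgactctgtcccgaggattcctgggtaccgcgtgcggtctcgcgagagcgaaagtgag
Rps27l: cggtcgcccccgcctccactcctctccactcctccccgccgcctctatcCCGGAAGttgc
Rpl10: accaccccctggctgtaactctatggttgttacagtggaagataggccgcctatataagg
Rps2: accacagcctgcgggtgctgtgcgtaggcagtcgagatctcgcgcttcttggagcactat
Rpl22l1: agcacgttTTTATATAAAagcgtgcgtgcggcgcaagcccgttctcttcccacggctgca
They lie at chr4:86857348-86857407 (minus strand), chr9:64173347-64173406 (plus), chr17:33824543-33824602 (minus), chr9:66946046-66946105 (plus), chrX:74270776-74270835 (plus), chr17:24720023-24720082 (plus) and chr3:28805468-28805527 (plus). Windows of RefSeq starts were matched by symbol for 62 of the 82 members. Within 20 bases either side of the start, 19 of the 62 (30.65%) held CTTTC on the coding strand, against 6.44% of the 27025 genes with a window, and 3 (4.84%) held it on the opposite strand, against 5.67%. CCGGAAG stood on either strand of the whole window of 250 bases before and 50 after the start in 25 members (40.32%; 9.93% of all genes), and TATAAA in 7 (11.29%; 15.67%). Of the sequences above, Rpl4 held CTTTC, Rps27l held CCGGAAG and Rpl22l1 held TATAAA, and the other 4 held none of these letters in this stretch. The letters CTTTC do not tell which gene has a TOP tract. Rps6 lacks them but opens at its start with a run of pyrimidines, and in Rpl4 they lie before the start shown.

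In level per length the members differed far more among themselves than between groups. These levels divide by annotated exon lengths of 383 to 6270 bases, which exceed the mature mRNA. In WT liver the 78 members that passed the filter had a median level of 60.3 RPKM (the CPM, scaled by TMM, per kilobase of exon) with quartiles of 27.6 and 103, and in WT brain a median of 40.9 with quartiles of 19.1 and 69.6. The 10 highest members held 39.2% of the summed RPKM in WT liver and 48.2% in WT brain. The order was much alike in both tissues (Pearson r = 0.918, Spearman rho = 0.904 for log2 RPKM over 78 members, which share the 3 mice and the exon lengths) and nearly the same in both genotypes of a tissue (r = 0.997 in liver and 0.996 in brain). These correlations are across genes, which are not independent replicates.

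Rplp1, a small acidic protein of the stalk that recruits elongation factors, had the highest level per length in all 4 groups. It stood at 541 ± 45.8 RPKM (SD, n = 3) in WT liver, 699 ± 79.3 in KO liver, 881 ± 152 in WT brain and 921 ± 40.3 in KO brain. In WT liver Rpl36 followed at 335 ± 27.6, then Rpl26 at 261 ± 28.4 and Rpl8 at 261 ± 43.8, and the last 2 did not differ beyond their spread. In WT brain Rpl19 (266 ± 38.9) and Rpl26 (248 ± 36.5) came next and did not differ beyond their spread. The lowest members that passed the filter were Rps10 (0.5004 ± 0.0714 RPKM in WT liver and 0.527 ± 0.0632 in WT brain), Rpl13a (3.47 ± 1.16 and 2.91 ± 0.292), Rpl22l1 in liver (4.45 ± 1.09) and Rps27l in brain (2.45 ± 0.888).

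Levels of some members are uncertain. A median of 14.4% of a member's 100-base stretches, the read length, also occur in transcripts of other genes, mostly pseudogenes, and for Rpl23a, Rpl35 and Rpl36 the share was 73.9, 70.2 and 55.3%. The share was 0 for 7 members. With its usual settings featureCounts leaves out reads that align to several places or fall on several genes of the strand. Rpl24, for which 47.0% of exon bases are also exon bases of Gm28037, had 41 counts in all 12 libraries together, Rps10 (20.6%, RPS10-NUDT3) had 272 and Rpl13a (35.4%, mostly Gm45713) had 1439, while these overlapping genes had 0 counts. How far this lowered the counts was not tested. Across the 78 members the share of shared stretches ran weakly with the level (rho = 0.245 in WT liver and 0.211 in WT brain), and hardly at all with the differences between genotypes (rho = 0.0936 in liver and 0.0448 in brain) or tissues (rho = -0.0218). The 4 members that did not pass the filter were Rpl24, Rpl3l (26 counts in all, the muscle paralog of Rpl3), Rpl39l (2 counts) and Rpl10l (0 counts), the last 2 known from testis. A count of 0 allows up to 3 counts in a library, or 0.208 CPM in the shallowest, for counting error only.

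**Figure D1:**
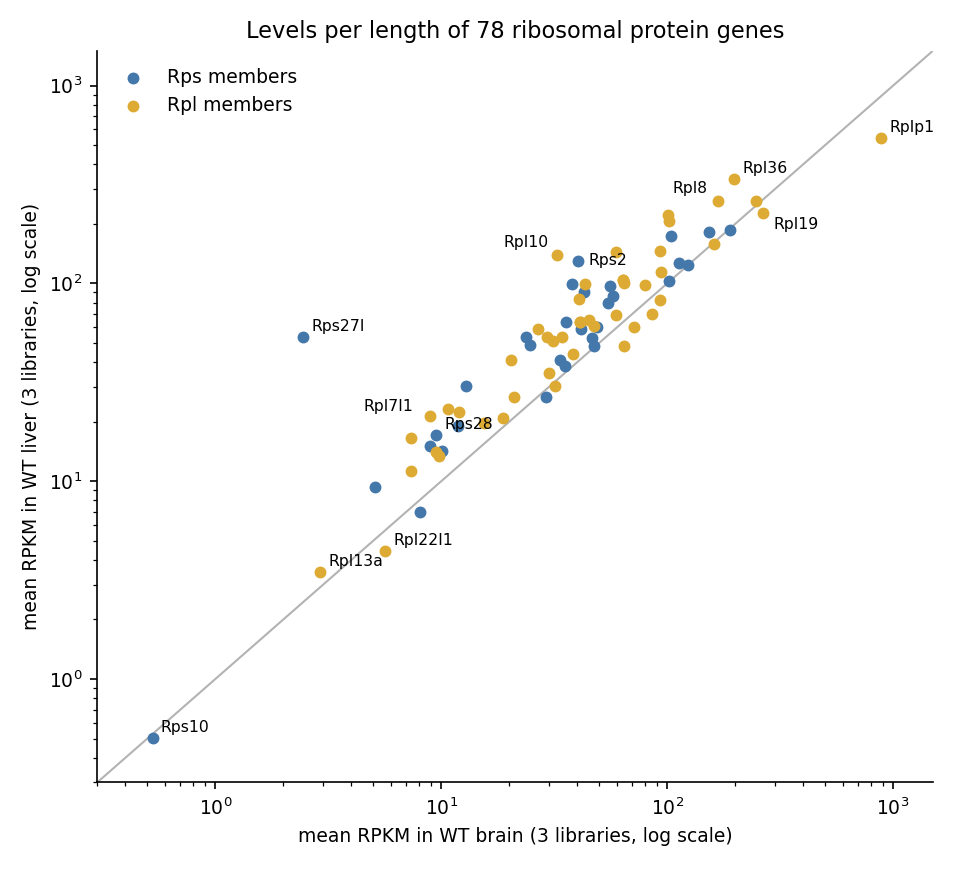
Mean RPKM of the 78 members that passed the filter, WT liver (y axis) against WT brain (x axis), both on log scales, with 1 point per gene and the line of equal values. Rplp1 lies highest and below the line, Rps27l lies farthest above it, and Rps10 lowest. Liver and brain were scaled together by TMM, and without a scaling factor the points would lie lower in liver.

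Between tissues of WT mice, most members rose in liver. With edgeR's quasi-likelihood test, TMM scaling and Benjamini-Hochberg adjustment over 17694 genes, 51 of the 78 members (65.4%) were called higher in liver at an adjusted p under 0.1, against 35.4% of all genes, and 1 (1.28%), Rplp1, was called lower, against 42.9% of all genes, but without a scaling factor the calls split into 12 higher and 32 lower. The members had a median log2 fold change of 0.65, against -0.16 for all genes. Without a scaling factor these became -0.19 and -0.99. The members' median above that of all genes was thus 0.809 with TMM and 0.802 without a factor, 0.869 with DESeq2 and 0.807 with upper-quartile scaling. A direction for a single member is therefore relative to the other genes of the libraries. As a share of all counts, the members took 0.779 to 0.961% in WT liver and 0.967 to 1.14% in WT brain (95% Wilson intervals of 0.776 to 0.783% and 1.14 to 1.15% for the lowest and the highest library, which cover counting error only and are far narrower than the spread between libraries).

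Rps27l, a small-subunit paralog of Rps27 known as a p53 target, had the largest difference. Its normalised read counts were 47.8, 50.7 and 31.998 CPM in WT liver and 1.89, 2.77 and 1.34 in WT brain, with no overlap, a log2 fold change of 4.51 (SE 0.29) and an adjusted p of 1.8e-07 (edgeR). In the KO mice it stood at 33.8, 44.5 and 34.5 CPM in liver and 2.67, 2.22 and 3.34 in brain, a log2 fold change of 3.79 (SE 0.22). None of its 100-base stretches occur in another gene. Rps27 itself, on the same scale, had 36.7, 47.2 and 35.7 CPM in WT liver and 34.7, 40.04 and 36.1 in WT brain, groups that overlap (log2 fold change 0.18, SE 0.16, 95% interval -0.18 to 0.54). Rps27 was called lower in liver without a scaling factor (-0.66, adjusted p = 0.0071 by edgeR), while Rps27l was still called higher.

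Rpl10, an X-linked protein that joins the large subunit late and sits near the site of peptide bond formation, had 288, 325 and 239.98 CPM in WT liver against 63.0, 68.9 and 69.0 in WT brain (log2 fold change 2.16, SE 0.17, adjusted p = 8.8e-07 by edgeR). Rps2, at the entry of the mRNA channel, had 232, 269 and 216 CPM against 83.1, 71.5 and 66.5 (1.77, SE 0.17). For both genes every liver library lay above every brain library. Rps26, at the mRNA exit, followed with a log2 fold change of 1.46 (SE 0.16), Rpl7a with 1.36 (SE 0.16) and Rpl7l1 with 1.34 (SE 0.16), and 18 members in all (23.1%) were called higher in liver by over 2-fold, against 25.8% of all genes, and 0 lower by as much, against 35.2%. If no scaling factor was used, 2 were called higher by over 2-fold, Rps27l (3.65) and Rpl10 (1.31), against 16.6% of all genes, and 5 lower, against 49.6%. At the other end, Rplp1 had 254, 296 and 259 CPM in WT liver and 439, 516 and 364 in WT brain, without overlap (log2 fold change -0.63, SE 0.18, adjusted p = 0.0097 by edgeR). Its partners of the stalk went the other way, Rplp0 by 1.21 (SE 0.20) and Rplp2 by 0.78 (SE 0.16), both called higher in liver, though without a scaling factor Rplp2 was at -0.0630 and Rplp0 at 0.36, neither called.

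By role, and beside the 35.4% of all genes called higher and 42.9% called lower, 4 of 8 proteins that line the exit tunnel were called higher in liver, led by Rpl4 (1.103, SE 0.20), as were 3 of 5 at the mRNA exit. Without a scaling factor no tunnel protein was called higher and most were called lower, among them Rpl19 (-0.995) and Rpl23a (-0.81). At the mRNA exit Rps26 (0.62) was then still called higher, while Rps14 (-0.75) and Rpsa (-0.51) were called lower. Of 4 around the mRNA entry and decoding centre, Rps2 and Rps3 (0.36, SE 0.16) were called, while Rps23 (0.04, 95% interval -0.35 to 0.44) and Rps15 (0.07, -0.27 to 0.41) were not. Rpl5 (0.43) and Rpl11 (0.78), which carry the 5S rRNA and bind Mdm2 when assembly stalls, were both called higher. Without a scaling factor Rpl11 was at -0.06, Rps3 (-0.49), Rpl5 (-0.40), Rps23 (-0.80) and Rps15 (-0.77) were called lower (adjusted p from 0.0012 to 0.069 by edgeR), and with upper-quartile scaling Rps3 and Rpl5 were no longer called (adjusted p = 0.11 for each by edgeR). Rps6, the substrate of the S6 kinases, was called higher, by 0.90 (SE 0.17), but not without a scaling factor (0.06), nor was Rpl4 (0.27). Of the 5 proteins named outside the rule, 3 of the 4 tested were called higher, Rack1 (1.05, SE 0.17), Rps3a1 (0.70, SE 0.19) and Fau (0.55, SE 0.16), none of which was called without a scaling factor (0.21, -0.14 and -0.29). The Rps and Rpl members were alike, with medians of 0.61 and 0.68 and 64.5 and 66.0% called higher.

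The KO mice, which are other animals, gave a similar picture. There 48 of 78 members (61.5%) were called higher in liver, against 36.2% of all genes, and 3 (3.85%), Rplp1, Rpl22l1 and Rps24, were called lower, against 44.1%. The median of the members was 0.50, and that of all genes -0.17. Without a scaling factor 23 were called higher and 26 lower, with medians of -0.03 and -0.71. The tissue differences of the 78 members in WT and in KO mice had Pearson r = 0.947 and Spearman rho = 0.923 (across genes, from libraries of the same 2 tissues and scaling), and 47 members (60.3%, against 72% of all genes tested in both) were called in both, 90.4% of the WT calls and 92.2% of the KO calls, against 88% and 87.4% for all genes. Among the larger gaps between WT and KO mice were those of Rps27l, given above, and of Rpl4, with 1.103 in WT and 0.39 (SE 0.19) in KO mice.

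**Figure D2:**
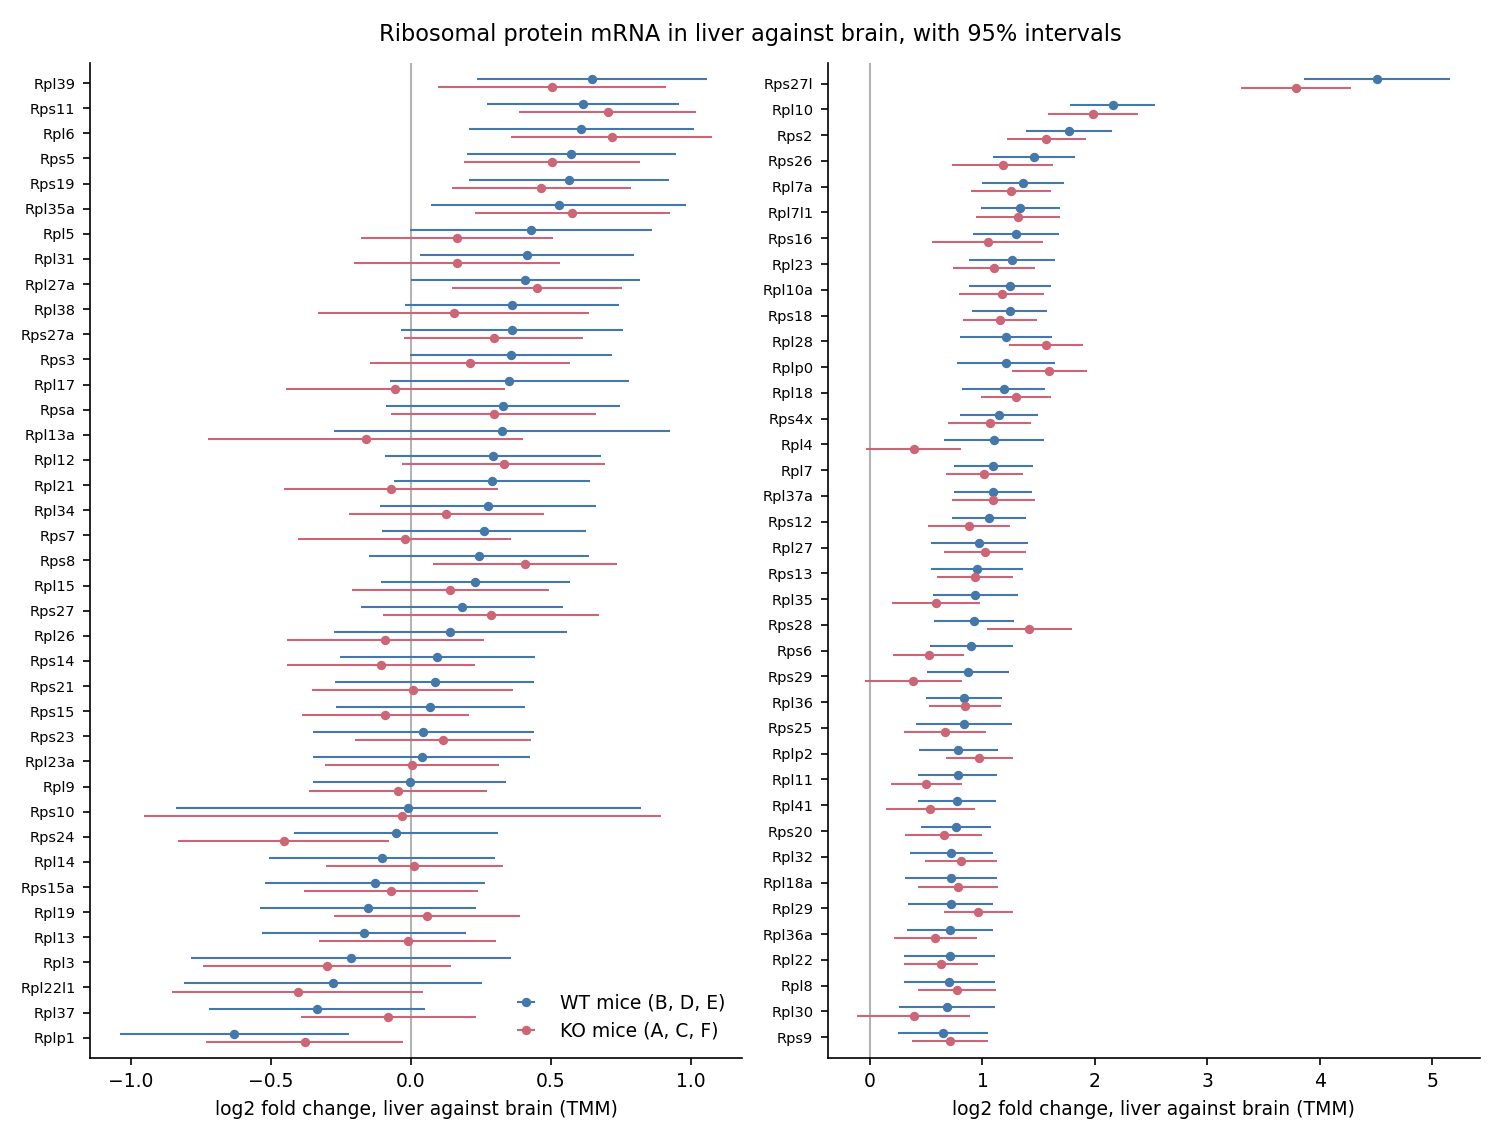
Log2 fold change of liver against brain (x axis, TMM scaling) for the members in order of the WT value over both panels with different scales (1 of the 78 is not shown), in WT mice (blue) and KO mice (red), with points for estimates and bars for 95% intervals from edgeR. Most points lie right of 0, Rps27l lies at 4.51 and 3.79, and Rplp1 lies left of 0, but without a scaling factor most members would lie left of 0.

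In KO liver no member passed the test. By edgeR's quasi-likelihood test, 0 of 78 members were called at an adjusted p under 0.1, as were 0% of the 14075 genes tested, and DESeq2 also called 0 members. At an unadjusted p under 0.05 stood 2 members (2.56%), against 7.33% of all genes. The smallest adjusted p of a member was 0.627, and Mettl5 itself was not called (adjusted p = 0.38 by edgeR). Most values were slightly above 0, as 61 of 78 members (78.2%) had a positive log2 fold change, against 49.6% of all genes, with a median of 0.09 for members and -0.0024 for all genes. In the fit without a scaling factor 70 (89.7%) were positive, against 63.6% of all genes, with medians of 0.18 and 0.09, and 8 (10.3%) stood at an unadjusted p under 0.05, against 8.26%, with 0 called. The direction leaned on single mice. Without WT mouse E 36 members were higher and the median was -0.01, and without WT mouse D 71 were higher and the median was 0.20. The 95% interval of 77 of the 78 members lay within a 2-fold change in either direction, with Rps10, a low member, as the exception.

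The members' values moved together within a library. In the liver of WT mouse E 75 of 78 members were below their mean over the 6 liver libraries, with a median log2 deviation of -0.22, while in the liver of WT mouse D 71 were above it (0.16) and in that of KO mouse C 74 were above it (0.14). Those of WT mouse B and KO mice A and F had medians of -0.05, 0.04 and -0.06. The WT liver libraries thus spanned the KO ones.

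**Figure D3:**
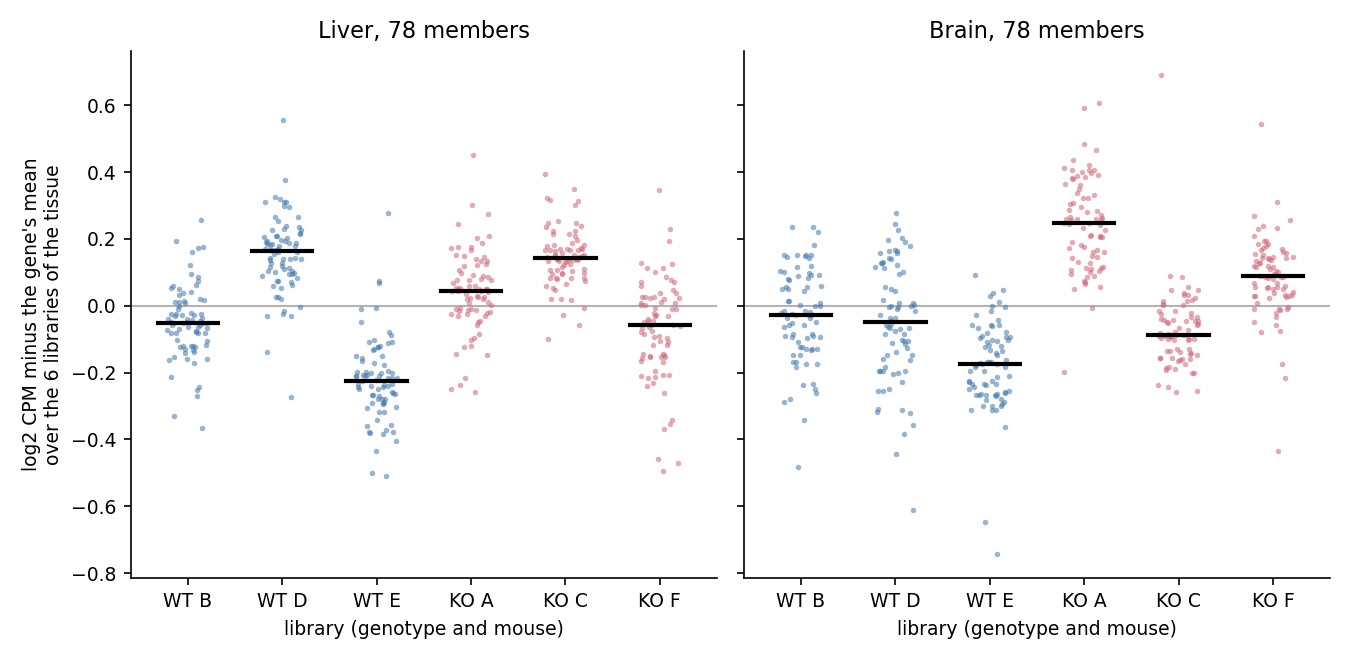
Deviation of each of 78 members from its mean over the 6 libraries of a tissue (y axis, log2 CPM), by library (x axis, genotype and mouse), with 1 point per gene and a bar at the median. In liver WT D and WT E lie on either side of the KO libraries, and in brain KO A lies highest (0.25) and WT E lowest (-0.18).

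Rps28, a small protein at the mRNA exit of the small subunit, had the smallest p in liver. It had 32.7, 30.1 and 25.7 CPM in WT liver and 35.4, 45.2 and 37.1 in KO liver, with every KO library above every WT library (log2 fold change 0.38, SE 0.15, adjusted p = 0.63 by edgeR). Rplp1 had 254, 296 and 259 CPM in WT and 313, 342 and 391 in KO liver, again without overlap (0.33, SE 0.15, adjusted p = 0.67 by edgeR). The other stalk proteins had values in the same direction, Rplp0 at 0.25 (SE 0.16) and Rplp2 at 0.20 (SE 0.14). Among the others named by the smallest p were Rps20 (0.20, SE 0.12) and Rps27 (0.24, SE 0.15) above 0, and below 0 Rpl4 (-0.30, SE 0.16), Rpl7l1 (-0.27, SE 0.15), Rps27l (-0.25, SE 0.19), Rps29 (-0.21, SE 0.18) and Rpl17 (-0.15, SE 0.14). Leaving out 1 mouse moved Rps29 to between -0.36 (without KO mouse C) and -0.05 (without KO mouse F), Rps27l to between -0.42 (without WT mouse E) and -0.11 (without WT mouse D), Rpl17 to as little as -0.08 (without KO mouse A), and Rpl4 to -0.17 (without KO mouse F). Rplp0 moved to between 0.14 (without WT mouse E) and 0.40 (without WT mouse D). Rpl7l1 moved to between -0.39 (without KO mouse C) and -0.17 (without WT mouse D). Over the settings tried Rps27 ran from 0.17 to 0.39. The KO libraries lay above all WT libraries for 5 members (6.41%), against 6.5% of all genes, and below them for 1 (1.28%), Rpl4, against 6.44%. Both shares are at or under those of all genes.

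In KO brain the members' values were also mostly positive with TMM scaling, and none passed the test. By edgeR 0 of 78 were called at an adjusted p under 0.1, where 0.064% of the 17188 genes tested were called, and DESeq2 called 0 members. At an unadjusted p under 0.05 stood 5 members (6.41%), against 11% of all genes, and the smallest adjusted p of a member was 0.355. A positive log2 fold change was found in 67 of 78 (85.9%), against 49.8% of all genes, with a median of 0.20 for members and -0.0016 for all genes, but without a scaling factor 28 were positive (35.9%, against 25.9% of all genes), the members' median was -0.04 and that of all genes -0.23. Relative to all genes the median was thus 0.200 with TMM, 0.193 without a factor and 0.174 with DESeq2. Leaving out a mouse moved it between 0.11 (without KO mouse A) and 0.28 (without KO mouse C). Of the Rps members 30 of 31 were above 0, with a median of 0.23, and of the Rpl members 37 of 47, with a median of 0.14, whereas without a scaling factor 15 and 13 were. The 95% intervals of 76 members lay within a 2-fold change.

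Single libraries again carried much of this. In the brain of KO mouse A 76 of 78 members were above their mean over the 6 brain libraries (median 0.25), in that of KO mouse F 64 (0.09), and in that of KO mouse C only 16 (-0.09). In the WT brains 32, 30 and 5 were above it, for mice B, D and E. KO mouse A also had the highest share of mitochondrial rRNA, 31.6%. Among the brain libraries it had the lowest sums of cerebellum (169 CPM), choroid plexus (85.2 CPM) and liver markers (87.9 CPM). The part of these in the members' values was not tested. With a correction for GC content and length the median was 0.19, with 74 members above 0 (94.9%, against 51.9% of all genes) and 19 at an unadjusted p under 0.05 (24.4%, against 13.1% of all genes), and 0 called.

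Rps6 had the smallest p in brain. Its normalised read counts were 59.7, 54.2 and 56.2 CPM in WT brain and 84.6, 66.5 and 76.5 in KO brain, with every KO library above every WT library (log2 fold change 0.46, SE 0.14, adjusted p = 0.36 by edgeR). In liver the groups overlapped, at 99.5, 117 and 85.9 CPM in WT and 109.75, 107 and 106 in KO (0.06, 95% interval -0.27 to 0.38). Rps12 (0.30, SE 0.13), Rpl35 at the tunnel exit (0.40, SE 0.17), Rps20 (0.33, SE 0.15) and Rpl4 (0.43, SE 0.19) followed. On the scale without a factor Rps6 was at 0.23, Rpl35 at 0.16, Rps12 at 0.07, Rps20 at 0.09 and Rpl4 at 0.20, and without WT mouse D Rpl4 was at 0.26 with TMM. On the other side were Rpl7l1 (-0.23, SE 0.14), Rplp0 (-0.12, SE 0.15), Rpl28 (-0.09, SE 0.15), Rps28 (-0.09, SE 0.15) and Rpl14 (-0.07, SE 0.16), of which the values of Rplp0, Rpl28 and Rpl14 turned positive with the GC and length correction. The KO libraries lay above all WT libraries for 11 members (14.1%), against 8.41% of all genes, and below them for 0, against 7.94%. Rps6, Rps12, Rps15, Rps20 and Rpl4 were among the 11.

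**Figure D4:**
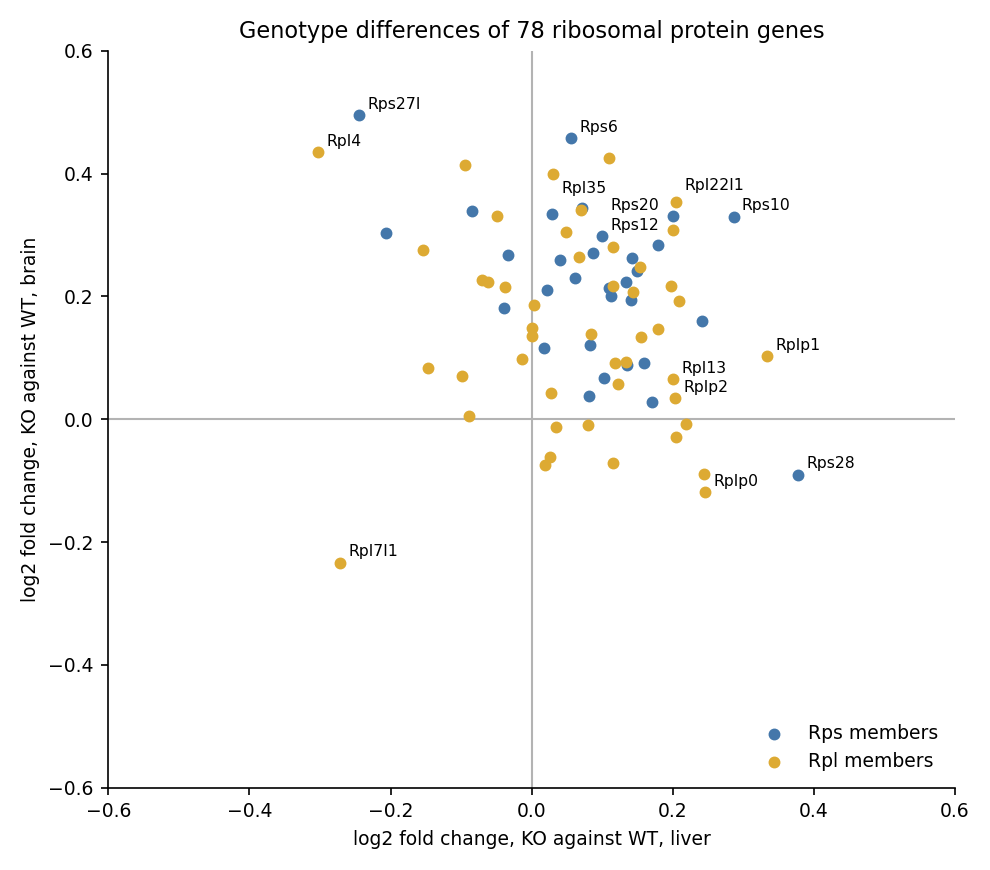
Log2 fold change of KO against WT in brain (y axis) against liver (x axis) for 78 members, with 1 point per gene (blue for Rps, yellow for Rpl). With TMM scaling most points lie above 0 in both tissues (51 members), Rpl4 and Rps27l lie farthest left among those below 0 in liver and above it in brain, and no member passed the test in either tissue, and without a scaling factor the brain median would lie at -0.04.

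The genotype effect was then compared between tissues, over all 12 libraries. No member was called for the difference (edgeR, 0 of 78, where 0% of 18944 genes were called, and DESeq2 called 0 members), and 2 (2.56%) stood at an unadjusted p under 0.05, against 10.6% of all genes. With TMM scaling, members above 0 in both tissues numbered 51, above 0 in liver alone 10, above 0 in brain alone 16, and below 0 in both 1, Rpl7l1. Without a scaling factor these numbers were 23, 47, 5 and 3. Across members the effects in liver and brain had r = -0.222 and rho = -0.216 (78 members, tissues of the same mice).

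Rpl4, whose loop reaches into the exit tunnel, was 1 of the 2. It had 433, 429 and 389 CPM in WT liver and 382, 382 and 277 in KO liver, all lower, and 221, 156 and 233 in WT brain and 317, 236 and 252 in KO brain, all higher. It was the 1 member (1.28%) below in liver and above in brain without overlap, against 0.962% of the genes tested in both tissues, and 0 members went the other way, against 0.827%. The effect in liver less that in brain was -0.70 (SE 0.27, adjusted p = 0.39 by edgeR). The other was Rps28, with a difference of 0.50 (SE 0.22, adjusted p = 0.44 by edgeR). Rps20, in the head of the small subunit, was the 1 member (1.28%, against 0.183% of the genes tested in both tissues) whose KO libraries lay above all WT libraries in both tissues, each scaled on its own, with 78.03, 81.2 and 74.8 CPM in WT and 94.3, 94.6 and 86.8 in KO liver, and 47.1, 51.8 and 46.0 in WT and 69.1, 51.1 and 57.3 in KO brain. None (0) lay below all WT libraries in both, against 0.286%. On this scale, set over all 12 libraries, the brain of KO mouse C (51.1) lay just under that of WT mouse D (51.8), whereas on the scale of the brain libraries alone it lay above it.

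**Figure D5:**
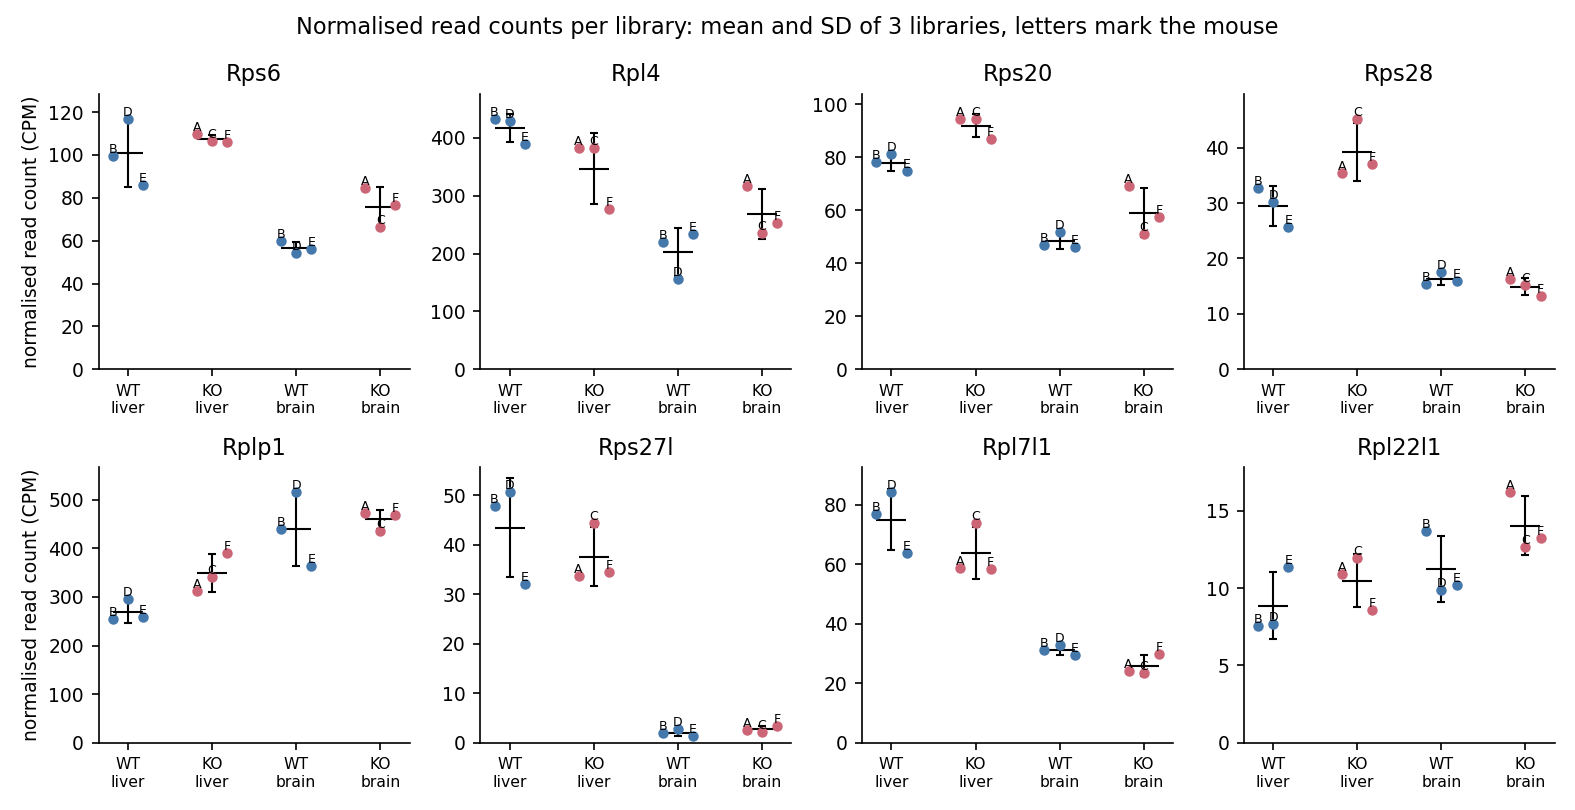
Normalised read counts (y axis, CPM scaled over all 12 libraries, from 0) of 8 members in the 4 groups (x axis), with 1 point per library marked by mouse, a bar at the mean and whiskers of 1 SD (n = 3). Rps27l is near 0 in brain, Rplp1 and Rpl22l1 have higher means in brain than in liver, and the WT and KO points of Rpl4 change order between liver and brain.

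Paralogs of ribosomal proteins were read against their partners, per length. Such shares depend on exon lengths that exceed the mature mRNA, and on which reads can be assigned. Of the 100-base stretches of Rps27, 20.4% occur in other genes, against 0% of those of Rps27l. The shares therefore do not tell which form is the more abundant. Rps27l made up 57.9 ± 4.53% of the summed RPKM of Rps27l and Rps27 in WT liver and 49.7 ± 3.61% in KO liver, and 6.39 ± 1.81% and 8.05 ± 1.12% in WT and KO brain (SD, n = 3). Rpl22l1, which Rpl22 is known to hold down, made up 6.72 ± 2.55% and 7.95 ± 1.58% of its pair in WT and KO liver and 12.2 ± 1.89% and 14.9 ± 0.806% in WT and KO brain. Its normalised read counts were 7.53, 7.66 and 11.3 CPM in WT and 10.9, 11.9 and 8.58 in KO liver, and 13.7, 9.85 and 10.2 in WT and 16.2, 12.6 and 13.3 in KO brain, and these counts overlapped between genotypes in both tissues (log2 fold change 0.20, SE 0.23, in liver and 0.35, SE 0.19, in brain). The shares of the pair did not overlap between genotypes for Rps27l in liver (53.4 to 62.5% in WT, 46.1 to 53.3% in KO) and for Rpl22l1 in brain (9.9998 to 13.4% in WT, 14.3 to 15.8% in KO), and overlapped in the other tissue.

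Rpl7l1, a relative of Rpl7 that acts in large subunit assembly, was the member below 0 in both tissues with TMM scaling. It had 77.0, 84.3 and 63.9 CPM in WT and 58.8, 74.0 and 58.5 in KO liver, and 31.3, 32.8 and 29.6 in WT and 24.2, 23.5 and 29.9 in KO brain. The genotypes overlapped in both tissues. Its share of the pair with Rpl7 ran from 19.9 to 21.0% in WT and 15.3 to 18.3% in KO liver, and from 17.1 to 19.0% in WT and 11.7 to 15.8% in KO brain. These shares did not overlap between genotypes in either tissue. An exact permutation test of 3 against 3 libraries cannot go below p = 0.1, and none was made of these or the other paralog shares. How many other gene pairs separate in this way was not counted. Of single genes, 6.44% lay lower in KO liver without overlap, and in KO brain 7.94% lay lower and 8.41% higher. The last paralog counted, Rps4l, is not protein-coding in the annotation and so no member. It had 8.95, 11.5 and 10.53 CPM in WT brain and 4.38, 3.81 and 8.30 in KO brain (log2 fold change -0.87, SE 0.28, adjusted p = 0.37 by edgeR).

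The genes that work with these mRNAs were read from lists of other TOP mRNAs, of genes that control TOP translation and of chaperones of single ribosomal proteins. None of the 14 other TOP mRNAs, mostly elongation and initiation factors, passed the test in KO liver or KO brain, with 10 and 8 above 0 and medians of 0.06 and 0.01. Npm1, a nucleolar factor of ribosome assembly on that list, had the smallest p of the list in both tissues, at -0.69 (SE 0.14, adjusted p = 0.38 by edgeR) in liver and 0.46 (SE 0.19, adjusted p = 0.42 by edgeR) in brain, and the difference between tissues, -1.11 (SE 0.25), had an adjusted p of 0.15 (edgeR). Npm1 and Eef1a1 were picked out after their values were seen. Between WT tissues 9 of the 14 were called higher in liver and 2 lower, with a median of 0.57, and Eef1a1, the elongation factor that brings tRNA, was highest at 2.03 (SE 0.23). Of the 11 control genes, among them Larp1, Mtor and the S6 kinases, none passed in KO liver (10 above 0, median 0.17) or KO brain (3 above 0, median -0.11), and 7 were called higher and 2 lower in WT liver against brain. Of the 7 chaperones none passed in KO tissue, and 4 were called higher and 1 lower in liver. These tissue calls stand beside 35.4% of all genes called higher and 42.9% called lower, with a median of -0.16, and are relative to TMM scaling. Without a scaling factor the balance turned, and each of these lists had more genes called lower in liver than higher. Eef1a1 (1.19) and Larp1 (1.04) were then still called higher, and Mtor (-0.45) was called lower.

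The split of the members' counts between the subunits was narrow. Rps members took 35.3 to 35.7% of all member counts in WT liver and 35.9 to 36.2% in KO liver, and 34.9 to 35.4% in WT brain and 35.6 to 36.5% in KO brain, with no overlap between genotypes in either tissue. This ratio within a library does not depend on scaling. It is given as a description, with no test, and how often other ratios separate groups of 3 was not counted. In liver the median deviations of Rps and Rpl members did not separate the genotypes. Rps stood above Rpl in WT mouse E (-0.221 and -0.235) and below it in KO mouse C (0.140 and 0.146). The members' share of all counts was 0.922 to 0.971% in KO liver and 0.938 to 1.07% in KO brain. With mitochondrial rRNA left out, it was 1.001 to 1.06% in KO and 0.934 to 1.08% in WT liver, and 1.19 to 1.48% in KO and 1.09 to 1.29% in WT brain, and the genotypes overlapped in each.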

How the data were processed

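Stranded total RNA libraries (SMARTer kit) of liver and brain from 6 mice were sequenced by the authors as 100-base single-end reads, trimmed with Trimmomatic, checked with FastQC 0.11.5, aligned to mm10 with STAR 2.7.3a and summed per gene over exons by featureCounts, set to the reverse strand. The authors deposited raw counts of reads per gene, with exon lengths. They compared genotypes with DESeq2 at an adjusted p under 0.1.

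The members and lists were chosen with earlier results of these data known. The table holds 55487 genes, of which 55227 have a symbol in the GENCODE annotation of mm10. Counts were fitted with edgeR 4.0.16 in R 4.3.3 (TMM, filterByExpr, robust quasi-likelihood F test, Benjamini-Hochberg adjustment over all genes tested, call at an adjusted p under 0.1), each tissue or genotype on its own 6 libraries and the difference of effects on all 12. Printed CPM and RPKM use TMM factors over all 12 libraries, whereas overlap between groups was read on the scale of each fit. RPKM divide by the deposited exon length, which spans all annotated exons and exceeds the mature mRNA. Scripts were tested on simulated counts. Library totals of 14403309 to 21623180 counts and 3 mice per group set the precision, and p-values measure only the spread between these mice.

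Named by rule were the 5 members on either side with the smallest p per tissue, the 5 with the largest called fold change on either side between tissues, the 3 highest and lowest per length, those outside the WT range in both tissues, the role lists and Mettl5. Liver and brain libraries of a mouse are paired by animal. Deviations from the group means correlated with r from -0.0247 (mouse A) to 0.112 (mouse E) over 18944 genes, and from -0.430 (mouse C) to 0.292 (mouse D) over the 78 members. Alternatives were DESeq2 1.42.0, upper-quartile scaling, no filter, 1 mouse left out, all libraries in a fit, a Y-linked covariate (each genotype holds 1 mouse without Y-linked transcripts), a GC and length offset, removal of mitochondrial rRNA, the replicate block, KO in place of WT libraries, and other sets of members. The fits without a scaling factor, and the values of single genes under other scalings, were added after seeing the data. A few genes are counted in the totals but not reported here by name.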

Additional observations from a re-analysis of the deposited data

Results flagged for a closer look

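Rpl4 was the 1 of 78 members (1.28%) whose KO libraries all lay below the WT libraries in liver and all above them in brain, as they did for 0.962% of all genes tested in both tissues. The KO effect in liver less that in brain was -0.70 on the log2 scale (SE 0.27), and from -0.86 to -0.42 over the settings tried, the smallest size without a scaling factor. Without KO mouse F the liver value went from -0.30 to -0.17, and without WT mouse D the brain value from 0.43 to 0.26. The difference was tested over all 12 libraries and was not called (adjusted p = 0.39 by edgeR, and from 0.25 to 0.80 over the settings tried). Its exons overlap those of small RNA genes over 7.87% of their bases.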

How the results depend on the processing

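In all settings tried 0 members were called for KO against WT in liver, in brain or for the difference of the effects. The members called between WT tissues numbered 44 to 52, apart from 55 with the 5 proteins outside the rule added. The direction was less stable: without a scaling factor 12 were called higher and 32 lower, against 51 and 1 in the main fit. With mouse as a replicate block 52 were called (50 higher, 2 lower), and 0 for the difference. Over all genes, DESeq2 and no filter called more than edgeR's 0 in KO liver (171 and 443), 11 in KO brain (267 and 1000) and 0 for the difference (367 and 183), and the block called 68 for the difference. The Y-linked covariate called 82 in KO liver, the GC and length offset 54 in KO brain, and leaving out WT mouse D 87 in KO liver and 86 for the difference, while leaving out KO mouse C called 23 in KO brain. The cause was not tested. Leaving out 1 mouse gave medians of -0.01 to 0.20 in liver, 0.11 to 0.28 in brain and 0.60 to 0.69 between tissues, where 44 to 51 members were called. Without a scaling factor, a choice made after seeing the data, the medians were -0.0357 in KO brain and -0.190 between tissues, and the tissue values of Rpl22 (-0.136) and Rps27 (-0.659) and the Rps20 difference of effects (0.1995) turned sign, since library totals then set the scale. In KO brain Rpl14 (0.0381), Rpl28 (0.0535) and Rplp0 (0.0353) turned sign with the GC and length offset. Leaving out 1 mouse gave -0.201 to 0.0038 for Rpl14 and -0.176 to 0.0134 for Rpl28 in KO brain, and -0.205 to 0.0209 for the Rps20 difference. The cause of these turns was not tested. Of 456 values of 36 gene results under alternatives, 443 kept direction and side of the threshold, 3 passed it, 1 missed it and 9 turned. With 3 mice a group, the 95% interval of a typical member reached 0.34 on either side of its log2 fold change in liver and 0.33 in brain.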
